A study of Homo sapiens with 36 samples.

Results

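The 9 genes described here, of 60662 gene IDs in the deposited table, encode secreted hormones and growth factors that cells under stress release: GDF15, FGF21, INHBE, FST, VEGFA, ADM, ANGPTL4, STC1 and STC2. They were taken by symbol, and each symbol matched 1 row. The cells were A549, an established line from a human lung adenocarcinoma. They received 100 nM of an siRNA that silenced ATF4 (siATF4), ATF6 (siATF6) or, as the control, no intended target (siControl). They were then held in medium with 25 mM or 0 mM glucose for 6 or 16 h. All 12 groups shared the cell line, a transfection, 10% dialysed serum and 2 mM glutamine, and untransfected cells were not analysed here. Each group had 3 replicates that the labels call biological, so p-values measure the spread between cultures of 1 line. Poly(A) RNA was sequenced without strand information. Transcripts were measured, not secreted protein.

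The integrated stress response slows translation while ATF4, a transcription factor, turns on genes for amino acid supply and for adaptation. ATF6 is a membrane protein of the endoplasmic reticulum that is cut under folding stress and then turns on chaperone genes. Both arms can act on secreted factors: GDF15 signals to the brain to lower appetite, FGF21 is a metabolic hormone of liver and fat, and VEGFA, ADM and ANGPTL4 are also known as targets of hypoxia. INHBE encodes the activin E subunit. Follistatin, the product of FST, binds and blocks some other activins. The stanniocalcins STC1 and STC2 inhibit the proteases PAPPA and PAPPA2, which release insulin-like growth factors.

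Short stretches around known stress motifs are shown because the 2 silenced factors act through promoters. RefSeq promoters (GRCh38.p14) were matched for 6 of the 9 genes: GDF15, FGF21, FST, ADM, ANGPTL4 and STC2. The 250 bases before each RefSeq start, which can differ from the gene start in the deposited table, were searched on both strands for the C/EBP-ATF composite core (TGATGNAA), the CCAAT box (CCAAT), the endoplasmic reticulum stress element (searched in its full form, which contains a CCAAT box), the hypoxia response core (ACGTG) and the AP-1 site (TGANTCA). Capitals mark the match, and each line gives 30 bases, 5′ to 3′, as on the plus strand of the genome or, for STC2, on the minus strand.
FGF21 composite core, chr19:48755459-48755488, plus strand: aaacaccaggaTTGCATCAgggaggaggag
GDF15 CCAAT box, chr19:18386042-18386071, plus strand: cccagctgtggtcATTGGagtgtttactct
FST CCAAT box, chr5:53480420-53480449, plus strand: cctccgaaagataATTGGgaagggtttcca
FST AP-1 site, chr5:53480457-53480486, plus strand: ggaaatgtcaccTGATTCAcactgaacttt
STC2 CCAAT box, chr5:173328498-173328527, minus strand: gccggggtctcggATTGGtccagccgccgg
ANGPTL4 hypoxia core, chr19:8363908-8363937, plus strand: gggaaagaagagtCACGTctcccacggttc
The composite core of FGF21 began 54 bases before the start and was the only match to that motif among the 6 promoters. Of all 35116 promoters in the table, 3.14% held the composite core, 32.0% a CCAAT box, 0.074% the stress element, 18.5% the hypoxia core and 6.57% an AP-1 site. No match was found in the ADM window. Much of this sequence is also annotated as exon of the same gene: 250 of the 250 bases for STC2 and ADM, 241 for GDF15 and 220 for FST. The stretches shown for GDF15, FST and STC2 lie wholly in such exons, and those of FGF21 and ANGPTL4 in none. A match describes letters and does not show binding.

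Of the 36 libraries, 35 held between 39.4 and 78.7 M counts. Replicate 3 of the deprived siATF4 cells at 6 h held 2.87 M and correlated with no other library above r = 0.161 across genes, so it entered no test and that group has n = 2. The 6 h libraries labelled siControl and siATF6, replicate 2, ran against their glucose labels. Whether 1 or both libraries of each such pair depart was not tested. Over 942 genes that deprivation changed in siControl at 16 h, the log2 ratio of 0 to 25 mM at 6 h correlated with the 16 h response at r = 0.813 and 0.797 for replicates 1 and 3 but at -0.825 for replicate 2. The corresponding values for siATF6, over 1124 genes, were 0.788, 0.771 and -0.845. Results at 6 h are therefore given with and without these libraries. Of the siRNA targets at 16 h, ATF6 was 2.36 ± 0.18 (SE) lower on the log2 scale in siATF6 than in siControl at 25 mM (adjusted p = 1.79e-05) and ATF4 was 1.29 ± 0.14 lower in siATF4 at 0 mM (adjusted p = 0.000186), both by edgeR's quasi-likelihood test. At 25 mM ATF4 mRNA was 130 ± 10.5 CPM (counts scaled to library size; SD, n = 3) in siATF4 and 157 ± 19.5 in siControl, and the difference did not pass the test (adjusted p = 0.759). The epithelial keratins KRT8, KRT18, KRT19 and KRT7 were at 97.0 CPM or more in all 35 libraries, with EPCAM between 1.88 and 7.64. Of the defining markers of blood cells, CD3E was at 0 and PTPRC at most 0.0405 CPM, while CD14 ran from 0.576 to 8.02 CPM and was at 1 CPM or more in 32 of the 35 libraries.

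Adjusted for transcript length, the 9 genes covered a wide range. In siControl cells at 16 h in 25 mM glucose, GDF15 stood at 91.3 ± 9.11 TPM (scaled to transcript length and library size; mean ± SD, n = 3) and ADM at 66.7 ± 1.27. STC2 followed at 35.9 ± 26.1 TPM, ANGPTL4 at 21.9 ± 5.36 and VEGFA at 17.3 ± 3.74, and these 3 overlapped within their SD. Lower still were STC1 at 3.35 ± 2.31, FST at 0.890 ± 0.129 and INHBE at 0.357 ± 0.0686 TPM, and FGF21 was at 0. Without glucose GDF15 stayed first at 301 ± 27.2 TPM, STC2 reached 165 ± 65.9, ADM 91.7 ± 36.9 and VEGFA 64.4 ± 9.59.

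Glucose deprivation for 16 h raised 5 of the 8 genes tested in siControl cells: GDF15, INHBE, FST, VEGFA and STC2 rose by 3.23-fold (INHBE) to 5.16-fold (STC2). ADM, ANGPTL4 and STC1 did not pass the test, and FGF21 had too few counts to enter it. Of all 18013 genes tested, 29% changed and 14.6% rose at an adjusted p below 0.05 (edgeR, Benjamini-Hochberg). The median log2 fold change was 1.77 over the 8 genes and 0.0093 over all genes. In bulk RNA, fewer cells of a type and less RNA per cell cannot be told apart. Summed CPM of 12 markers of other cell types, mostly COL1A1 and CD14, ran from 28.2 to 29.4 at 25 mM and from 9.55 to 12.8 at 0 mM in these libraries. It ran from 20.04 to 21.5 and from 7.68 to 11.6 in siATF4, and from 12.6 to 17.3 and from 3.88 to 6.66 in siATF6. Its part in the results was not tested.

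**Figure D1:**
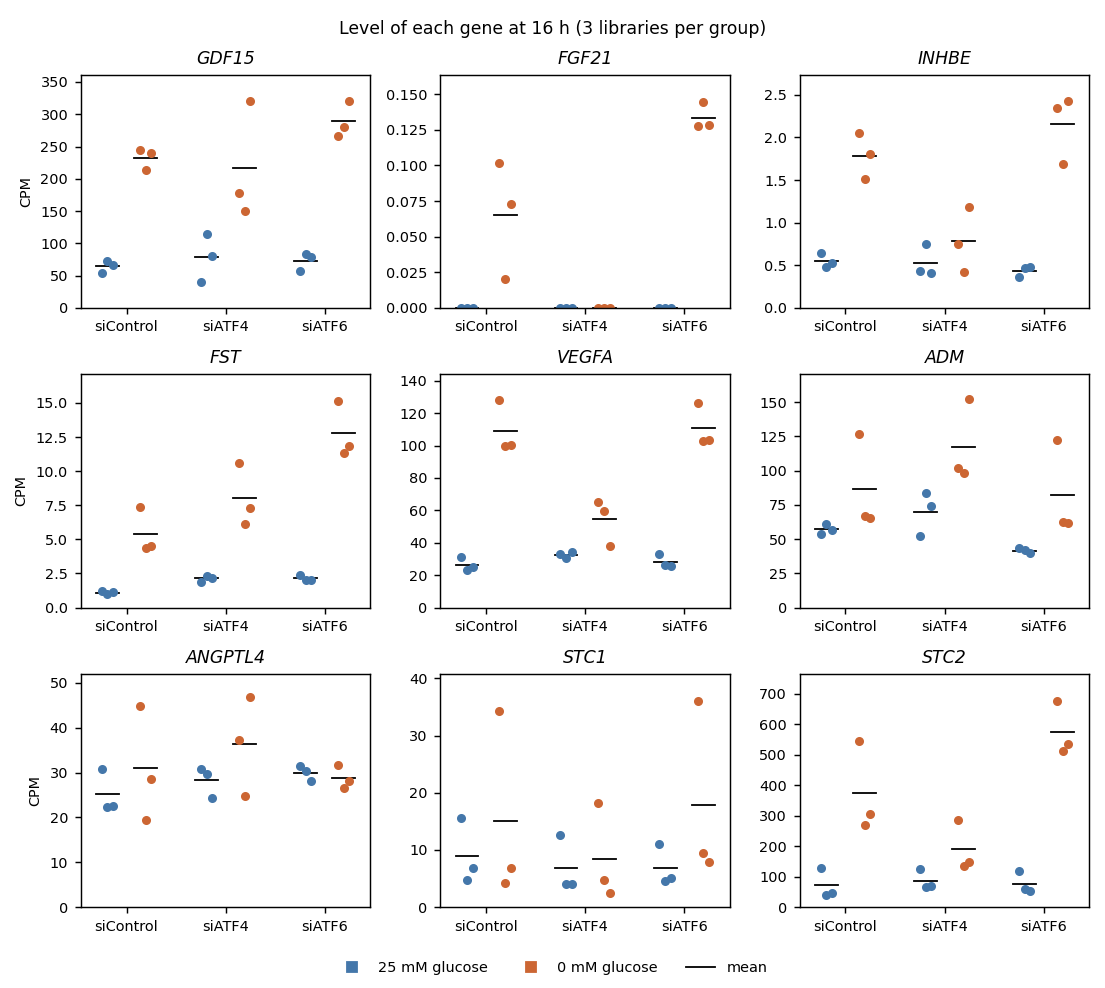
CPM of each gene in the 18 libraries of 16 h, by siRNA (x axis) and glucose (colour); each point is 1 library and the line is the group mean. The 0 mM points of GDF15, FST, VEGFA, ADM and STC2 lie above the 25 mM points in all 3 siRNA groups. The media did not overlap for 51.9%, 33.4% and 54.6% of all tested genes in siControl, siATF4 and siATF6. FGF21 was at 0 in all 9 libraries with glucose and in the 3 siATF4 libraries without it.

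GDF15 (chromosome 19, 18374731 to 18389176, plus strand, GRCh38) is a distant member of the TGF-beta family that acts through GFRAL. In siControl its level was 54.1, 72.5 and 67.1 CPM at 25 mM and 244, 214 and 240 CPM at 0 mM, for replicates 1, 2 and 3. In siATF4 the values were 39.5, 114 and 81.0 CPM with glucose and 178, 151 and 320 CPM without. In siATF6 they were 56.9, 83.9 and 78.4 CPM, and 266, 280 and 321 CPM. The 2 media did not overlap with any of the 3 siRNAs, as held for 51.9%, 33.4% and 54.6% of all tested genes in siControl, siATF4 and siATF6. GDF15 rose on deprivation by 1.85 ± 0.32 (log2, SE) in siControl (adjusted p = 0.000366), by 1.45 ± 0.31 in siATF4 (adjusted p = 0.00272) and by 1.96 ± 0.32 in siATF6 (adjusted p = 0.000187). How siATF4 stood to siControl without glucose depended on the scaling. In CPM the siATF4 libraries lay on both sides of the siControl ones, with the 320 CPM of replicate 3 above them. In TPM all 3, from 177 to 241, lay below the siControl libraries, from 270 to 319. In CPM the order of the 6 group means was siATF6, siControl and siATF4 at 0 mM, then siATF4, siATF6 and siControl at 25 mM. Neighbours within a medium overlapped in CPM except siATF6 and siControl at 0 mM, where 28.9% of all tested genes did not overlap. In TPM those groups overlapped as well, at 309 to 360 in siATF6 and 270 to 319 in siControl.

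INHBE (chromosome 12, 57452323 to 57459280, plus strand) encodes the activin E subunit. It was a low transcript, at 0.640, 0.485 and 0.525 CPM in siControl with glucose and 2.05, 1.51 and 1.80 CPM without. In siATF6 it went from 0.357, 0.466 and 0.479 CPM to 2.35, 1.69 and 2.43 CPM. In siATF4 it was 0.428, 0.749 and 0.413 CPM with glucose and 0.746, 0.423 and 1.18 CPM without, so the media overlapped in siATF4 alone. Fewer genes separated the media in siATF4 at large: 33.4% of all tested genes, against 51.9% in siControl and 54.6% in siATF6. The rise was 1.69 ± 0.33 in siControl (log2, adjusted p = 0.00118) and 2.28 ± 0.34 in siATF6 (adjusted p = 8.44e-05), while siATF4 gave 0.54 ± 0.34 (adjusted p = 0.255). Counts behind these levels were 17 to 114 per library.

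FST (chromosome 5, 53480626 to 53487134, plus strand), which encodes an antagonist of some activins, was also low with glucose and separated the media with every siRNA. In siControl, siATF4 and siATF6 the media also did not overlap for 51.9%, 33.4% and 54.6% of all tested genes. Its levels in siControl were 1.18, 0.971 and 1.14 CPM at 25 mM and 7.34, 4.38 and 4.53 CPM at 0 mM. In siATF4 they were 1.91, 2.32 and 2.20, then 10.6, 6.09 and 7.31 CPM. In siATF6 they were 2.39, 2.02 and 2.03, then 15.1, 11.3 and 11.9 CPM. At 25 mM all 6 knockdown libraries were above the 3 siControl ones. No overlap with siControl was also found there for 15.7% of all tested genes in siATF4 and 29.3% in siATF6. At 0 mM the 3 siATF6 libraries were above all others in CPM, and 28.9% of all tested genes did not overlap between siATF6 and siControl. In TPM the highest siATF4 library at 0 mM, at 7.15, was above the lowest siATF6 one, at 7.10. FST rose on deprivation by 2.30 ± 0.24 in siControl (log2, adjusted p = 3.52e-06), 1.88 ± 0.23 in siATF4 (adjusted p = 2.82e-05) and 2.54 ± 0.24 in siATF6 (adjusted p = 8.67e-07).

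VEGFA (chromosome 6, 43770184 to 43786487, plus strand), the main angiogenic growth factor, had in siControl 31.5, 23.3 and 24.9 CPM with glucose and 128, 99.5 and 100 CPM without. The siATF6 libraries gave nearly the same levels, 32.8, 26.0 and 25.6 CPM and then 126, 103 and 103 CPM. In siATF4 VEGFA was at 33, 30.8 and 34.2 CPM with glucose and at 65.3, 59.6 and 38.2 CPM without. In CPM the 3 siATF4 libraries without glucose thus lay between the deprived and the fed libraries of the other siRNAs. In TPM they ran from 13.2 to 35.3 and so reached below the lowest siControl library with glucose, at 14.5. They also overlapped siATF4 with glucose, at 16.0 to 22.3 TPM, but stayed below siControl without glucose, from 57.2 TPM. The rise on deprivation was 0.72 ± 0.18 in siATF4 (log2, adjusted p = 0.00804) and 1.95 ± 0.19 in siATF6 (adjusted p = 1.19e-06), against 2.04 ± 0.19 in siControl. Reads were not stranded, and 1.30% of VEGFA exon bases overlap the antisense gene AL136131.3 in GENCODE 29.

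ADM (chromosome 11, 10305073 to 10307397, plus strand) encodes adrenomedullin, a peptide that widens blood vessels. In siControl it was at 53.7, 60.7 and 56.8 CPM with glucose and at 127, 66.8 and 65.4 CPM without. In siATF6 the levels were 43.8, 41.7 and 39.6 CPM, then 122, 62.7 and 61.5 CPM. In both, replicate 1 without glucose stood far above the other two. In siATF4 ADM was at 52.0, 83.6 and 74.5 CPM with glucose and 102, 98.6 and 152 CPM without. The media did not overlap with any siRNA, as held for 51.9%, 33.4% and 54.6% of all tested genes in siControl, siATF4 and siATF6. Only the siATF6 change passed the test, at 0.95 ± 0.29 (log2, adjusted p = 0.018), and it fell to 0.55 (adjusted p = 0.137) without replicate 1 at 0 mM. It was also lost without replicate 2 (adjusted p = 0.052) or replicate 3 (adjusted p = 0.0606) at 25 mM. In siATF4 the value was 0.73 ± 0.29 (adjusted p = 0.0682). It ran from 0.50 to 0.87 over 16 alternative fits and passed in 2.

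ANGPTL4 (chromosome 19, 8363289 to 8374370, plus strand), an inhibitor of lipoprotein lipase, passed no test in any of the 20 comparisons. At 16 h its levels in siControl were 30.8, 22.3 and 22.6 CPM with glucose and 44.9, 19.3 and 28.5 CPM without. In siATF4 they were 30.8, 29.7 and 24.3, then 37.3, 24.8 and 46.7 CPM, and in siATF6 31.3, 30.4 and 28.0, then 31.8, 26.5 and 28.2 CPM. All 6 groups overlapped, with means from 25.2 to 36.3 CPM. The highest library and the lowest library at 16 h were both without glucose.

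STC1 (chromosome 8, 23841929 to 23854806, minus strand) and STC2 (chromosome 5, 173314713 to 173329503, minus strand) encode the stanniocalcins. Their responses were not tested against each other. STC1 in siControl was at 15.6, 4.68 and 6.83 CPM with glucose and 34.3, 4.26 and 6.79 CPM without. Replicate 1 was the highest STC1 library in all 6 groups at 16 h, at 11.1 to 36.1 CPM, while replicates 2 and 3 stayed between 2.43 and 9.45 CPM. The media overlapped with every siRNA, and STC1 passed no test at 16 h. With the replicate number as a block it rose on deprivation in siATF6, by 1.09 (log2, adjusted p = 0.00991), where 3567 of all genes rose.

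STC2 shared the high replicate 1, but its rise on deprivation passed the test in siControl and siATF6. In siControl it was at 128, 41.4 and 46.6 CPM with glucose and 544, 269 and 306 CPM without. In siATF6 it was at 117, 61.0 and 54.7 CPM, then 676, 511 and 536 CPM. In siATF4 it was at 124, 65.5 and 71.0 CPM with glucose and 286, 134 and 148 CPM without. STC2 rose by 2.37 ± 0.46 in siControl (log2, adjusted p = 0.0011) and by 2.86 ± 0.47 in siATF6 (adjusted p = 0.000213). In siATF4 the media did not overlap in CPM, as held for 33.4% of all tested genes. In TPM they did, at 25.5 to 62.8 with glucose and 38.3 to 116 without. The siATF4 value of 1.11 ± 0.45 did not pass the test (adjusted p = 0.0742). Over 16 alternative fits this value ran from 0.69 to 1.46 and passed in 3.

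FGF21 (chromosome 19, 48755524 to 48758333, plus strand) was at the edge of detection. At 16 h it had 0 counts in all 9 libraries with glucose. Without glucose it had 5, 1 and 3 counts in siControl, 5, 7 and 6 in siATF6 and 0, 0 and 0 in siATF4. A limit of 3 counts over a group was taken as what a count of 0 allows. The observed level without glucose was 2.76-fold this limit for the libraries with glucose in siControl and 6.14-fold in siATF6. Against the same limit for siATF4 without glucose, the observed level was 2.92-fold in siControl and 5.75-fold in siATF6. When no filter on low counts was applied, edgeR called the siATF6 rise (adjusted p = 0.0138) but neither the siControl rise (adjusted p = 0.0638) nor the difference of siATF4 from siControl without glucose (adjusted p = 0.123). The limit covers the counting error of the groups at 0 only, so these ratios are no lower bounds. The counting error of the counts set against it and the spread between cultures are left out.

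**Figure D2:**
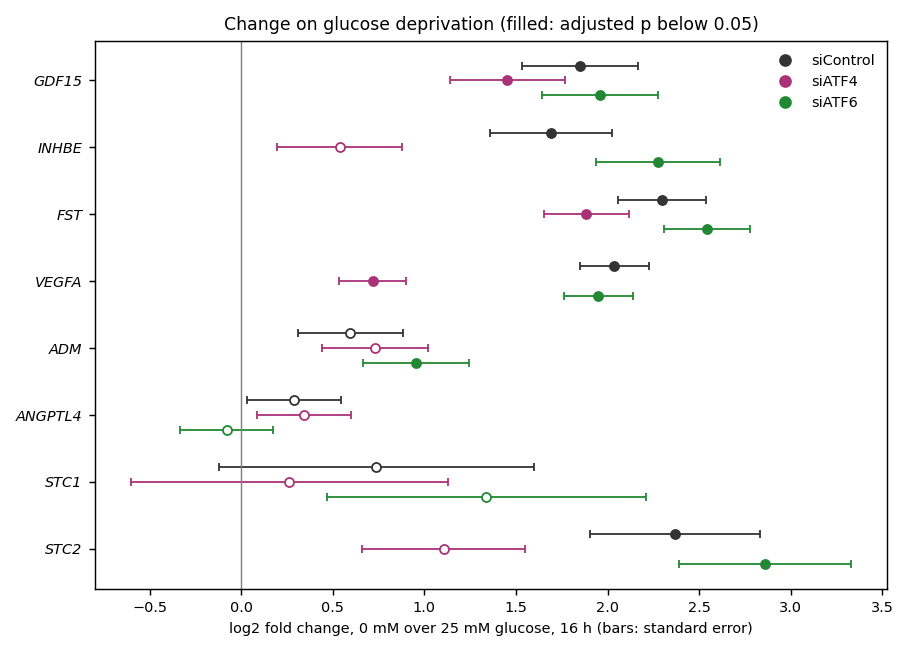
Log2 fold change of 0 over 25 mM glucose at 16 h (x axis) for the 8 tested genes, with standard errors as bars, by siRNA (colour); filled points have an adjusted p below 0.05. The siATF4 points of INHBE, VEGFA and STC2 lie left of the siControl and siATF6 points. Those of GDF15 and FST also lie left of both, but nearer to them. The siATF4 point of STC1, the gene with the widest bars, lies left of both too, and that of ADM lies between them.

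With ATF4 silenced, deprivation raised 3 of the 8 genes, GDF15, FST and VEGFA, where 29.1% of all genes changed and 14.9% rose. With ATF6 silenced it raised 6 of 8, the 5 of siControl and ADM, where 33.5% of all genes changed and 15.6% rose. The medians over the 8 genes were 0.72 for siATF4 and 1.95 for siATF6 on the log2 scale. These counts share no libraries, but a difference between them was tested only through the interactions given next.

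For the question of how far the responses depended on ATF4, the change on deprivation in siATF4 was set against that in siControl. None of the 8 genes passed this test, in which 0.172% of all genes did. VEGFA came nearest, with a response smaller by 1.32 ± 0.26 (log2, adjusted p = 0.057), followed by INHBE at -1.15 ± 0.47 (adjusted p = 0.509) and STC2 at -1.26 ± 0.62 (adjusted p = 0.563). The VEGFA value passed without replicate 1 (-1.46, adjusted p = 0.0352) or replicate 3 (-1.12, adjusted p = 0.0324) of siATF4 at 0 mM. DESeq2 also called it, at -1.30 with an adjusted p of 0.00101. With the replicate number as a block, VEGFA and STC2 passed. In siATF4, however, the media were not paired by number, with the lowest correlation at -0.572. Against siATF6 in place of siControl the response of VEGFA in siATF4 was smaller by 1.23 ± 0.26 (adjusted p = 0.0548), and 0 of 8 passed, beside 0.355% of all genes. Without replicate 3 of siATF4 at 0 mM this comparison called VEGFA (-1.04, adjusted p = 0.0394) and INHBE (-2.15, adjusted p = 0.0467). Without replicate 1 it called VEGFA (-1.38, adjusted p = 0.0319).

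Within the libraries without glucose, ATF4 silencing lowered 2 of the 8 genes at 16 h, VEGFA and INHBE, where 12.4% of all genes changed and 5.09% fell. VEGFA fell by 1.02 ± 0.18 and INHBE by 1.22 ± 0.33 on the log2 scale (adjusted p = 0.00375 and 0.028, edgeR), and neither gene's libraries overlapped between the siRNAs, as held for 27.9% of all tested genes. STC2 gave -0.99 ± 0.44 (adjusted p = 0.141). Replicate 1 of siATF4, at 286 CPM, was inside the siControl range of 269 to 544 CPM, whereas in TPM the highest siATF4 library, at 116.1, was just under the lowest siControl one, at 116.2. With the replicate number as a block, 4 of the 8 genes passed, among 4076 of all genes: STC2 at -1.01 (adjusted p = 0.0018) and FST at 0.55 (adjusted p = 0.0316) joined the other two. Replicate 3 of siATF4 at 0 mM stood apart from the other 16 h libraries, with a median r of 0.957 to the rest. Without it VEGFA was at -0.82 (adjusted p = 0.00765) and INHBE at -1.63 (adjusted p = 0.0108). The INHBE call was lost without siControl replicate 1 (adjusted p = 0.0803) or replicate 3 (adjusted p = 0.0822) or without siATF4 replicate 2 (adjusted p = 0.0512), and the count without siControl replicate 3 was 1.

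FST lay on the other side of 0: in siATF4 without glucose it was 0.55 ± 0.22 above siControl (adjusted p = 0.109), and it was called without siControl replicate 1 (0.83, adjusted p = 0.0396) or siATF4 replicate 2 (0.71, adjusted p = 0.0401). With glucose, none of the 8 genes passed between siATF4 and siControl, beside 0.0444% of all genes and 1248 at an unadjusted p below 0.05. ATF4 mRNA itself did not pass there either, so its silencing was not shown at 25 mM. FST gave 0.96 ± 0.24 (log2, SE, adjusted p = 0.229, edgeR). DESeq2 called FST there, at 0.95 (adjusted p = 0.0472).

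**Figure D3:**
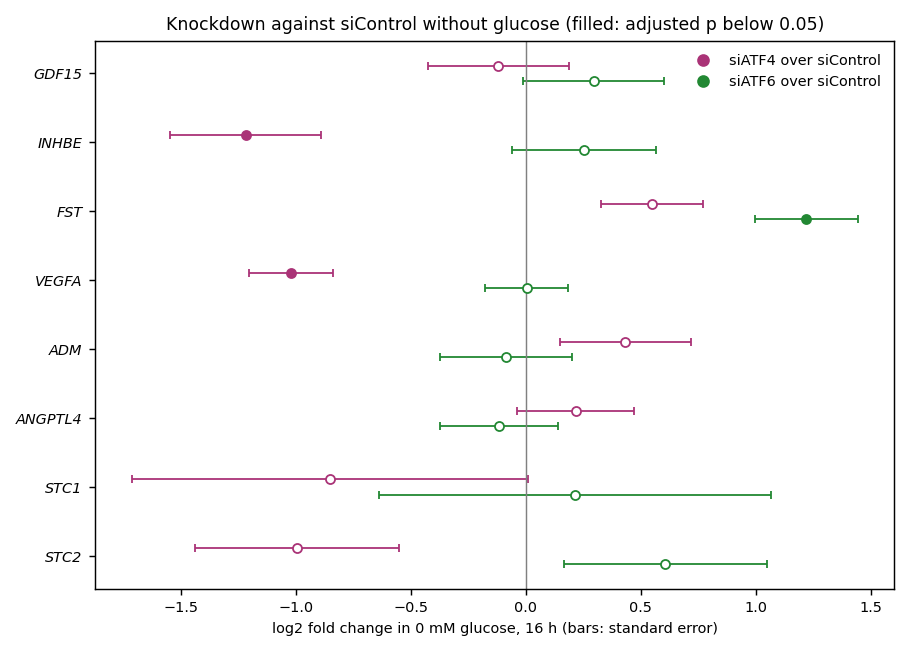
Log2 fold change of each knockdown over siControl in 0 mM glucose at 16 h (x axis) for the 8 tested genes, with standard errors as bars; filled points have an adjusted p below 0.05. VEGFA and INHBE are the filled siATF4 points, at -1.02 and -1.22, and FST is the filled siATF6 point, at 1.22.

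With ATF6 silenced and without glucose, FST was higher than in siControl and the other 7 tested genes did not pass. FST was 1.22 ± 0.22 higher on the log2 scale (adjusted p = 0.00605), 1 of 8 genes, where 4.02% of all genes changed and 1.11% rose. That call was lost when the 6 h libraries joined the fit (adjusted p = 0.34 with 35 libraries). With glucose none of the 8 passed, beside 0.749% of all genes; FST gave 0.97 ± 0.24 (adjusted p = 0.0791), and DESeq2 called it (0.97, adjusted p = 0.0192). With the replicate number as a block, FST also passed with glucose (0.98, adjusted p = 0.0136), among 531 genes, and STC2 without it (0.69, adjusted p = 0.0188), among 1836. The response to deprivation differed between siATF6 and siControl for none of the 8 genes. Across all 18013 genes edgeR also called none there, DESeq2 called 16, and 412 had an unadjusted p below 0.05 in edgeR. VEGFA without glucose was at 111 ± 13.5 CPM in siATF6 and 109 ± 16.4 in siControl (SD, n = 3).

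At 6 h none of the genes passed any of the 7 tests, each over 17 libraries and 18355 genes. For deprivation edgeR also called no other gene, in siControl (181 genes at an unadjusted p below 0.05), siATF4 (695) or siATF6 (148), and DESeq2 called 1, 0 and 0. For siATF4 against siControl it called none at 25 mM (755 unadjusted) or 0 mM (968), where DESeq2 called 20 and 36. For siATF6 against siControl it called 0.496% and 0.311% of all genes.

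**Figure D4:**
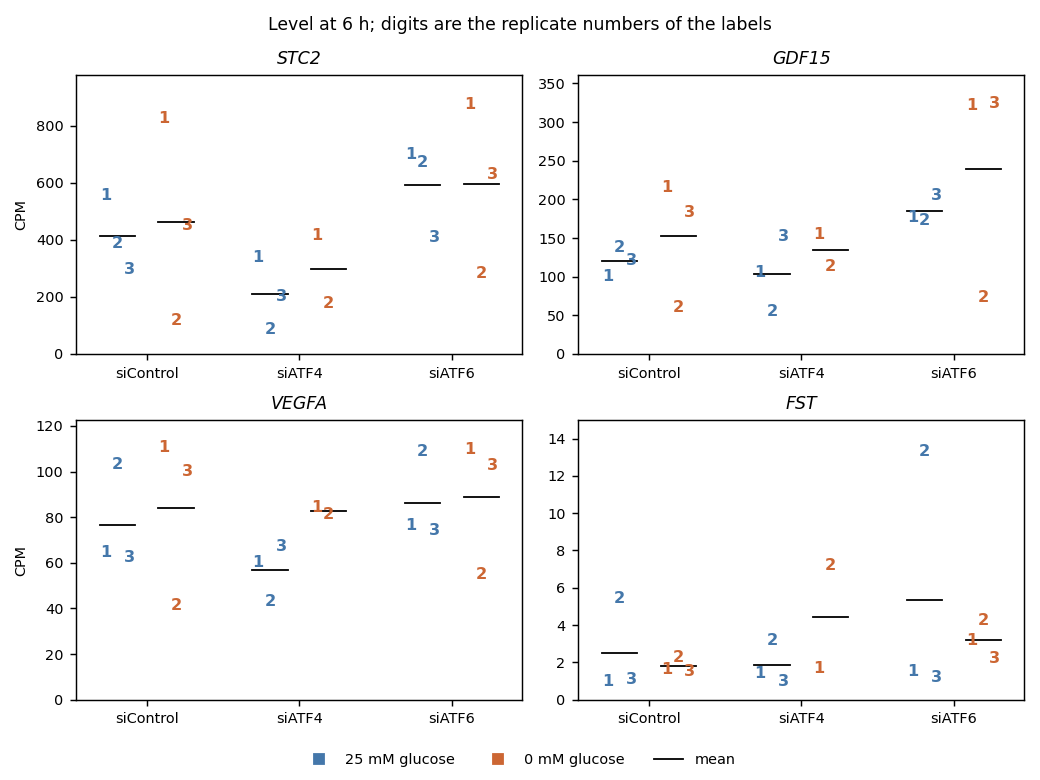
CPM at 6 h of STC2, GDF15, VEGFA and FST by siRNA (x axis) and glucose (colour); each digit is 1 library, drawn as its replicate number, and the line is the group mean. The libraries labelled siControl and siATF6, replicate 2, at 0 mM lie below those at 25 mM for all 4 genes, and those of replicates 1 and 3 lie above.

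Replicate 2 parted from the others in these genes as well. STC2 in siControl at 6 h was at 556, 389 and 298 CPM in the libraries labelled 25 mM and 826, 119 and 449 CPM in those labelled 0 mM. GDF15 was at 100, 138 and 121 CPM, then 216, 59.5 and 183 CPM. VEGFA was at 64.6, 103 and 62.2 CPM, then 111, 41.2 and 100 CPM. In each of the 3, replicates 1 and 3 were higher without glucose and the library labelled replicate 2 was lower.

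The siATF6 libraries had the same split. GDF15 was at 176, 172 and 205 CPM with glucose and 321, 72.4 and 324 CPM without, and VEGFA was at 76.5, 109 and 74.0, then 110, 55.0 and 102 CPM. In siATF4 the 2 remaining replicates correlated with the 16 h response at r = 0.805 and 0.835 over 750 genes, and VEGFA was at 60.2, 42.9 and 67.1 CPM with glucose and 84.1 and 81.1 CPM without. Leaving out all 6 h libraries of replicate 2, deprivation raised 2 genes in siControl, GDF15 by 0.85 (log2, adjusted p = 0.0422) and VEGFA by 0.73 (adjusted p = 0.00541). It raised 1 in siATF6, VEGFA by 0.51 (adjusted p = 0.0346). These values come from 2 libraries a group. Replicate 2 was left out because its glucose ratio ran against the 16 h response in siControl and siATF6. That choice favours genes that rise at 16 h, so these calls are no independent test of a rise at 6 h.

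INHBE in siControl had the same order, at 2.87, 2.48 and 1.95 CPM with glucose and 4.20, 0.617 and 2.10 CPM without. The 3 siATF4 libraries with glucose, at 1.73, 0.473 and 1.59 CPM, were all below siControl, as held in 1 direction or the other for 13% of all tested genes. FST at 6 h was highest in replicate 2 of every group, at 5.41 CPM in siControl and 13.3 CPM in siATF6 with glucose. ADM was lowest in replicate 2 of every group, for example 92.6, 39.6 and 104 CPM in siControl with glucose. FGF21 had 21, 15 and 18 counts in siATF6 with glucose against 4, 5 and 8 in siControl, which did not pass the test (adjusted p = 0.389). Those groups did not overlap, nor did they for 17.8% of all tested genes. STC1 ran from 7.51 to 18.9 CPM in siControl at 6 h and ANGPTL4 from 18.5 to 43.0 CPM, in both with overlapping media.

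Between 6 and 16 h in siControl, tested over 35 libraries, VEGFA fell by 1.53 ± 0.29 with glucose (log2, adjusted p = 0.0139), 1 of 9 genes where 0.273% of all genes changed and 0.252% fell. The groups did not overlap, like those of 21.5% of all tested genes, and ran from 62.2 to 103 CPM at 6 h and from 23.3 to 31.5 CPM at 16 h. The call was lost without replicate 2 at 6 h (-1.25, adjusted p = 0.103) and without replicate 1 (adjusted p = 0.051), 2 (adjusted p = 0.138) or 3 (adjusted p = 0.141) at 16 h. STC2 with glucose gave -2.52 ± 0.61 (adjusted p = 0.088) and INHBE -2.14 ± 0.51 (adjusted p = 0.0744). Without glucose none of the 9 passed, beside 13.4% of all genes. No time point precedes the change of medium, so time in culture and time since the change cannot be told apart.

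The deprivation response of siControl was larger at 16 h than at 6 h for VEGFA, by 1.91 ± 0.40 (log2, adjusted p = 0.00243), and for FGF21, by 5.50 ± 1.69 (adjusted p = 0.0474), 2 of 9 genes where 8.62% of all genes changed and 4.09% were larger. The FGF21 value rests on at most 8 counts a library, depends on the prior count used by the fit, and is no bound. It passed without replicate 1 at 0 mM and 6 h or replicate 2 at 0 mM and 16 h, and in the other 10 fits that left out 1 of the 12 libraries its adjusted p was 0.0546 to 0.119. Both values include the libraries of replicate 2 at 6 h. Over 21 alternative fits, among them 1 without these libraries, the VEGFA difference ran from 1.30 to 2.16. It passed in 20, all but the fit of all 36 libraries. The FGF21 difference ran from 4.81 to 6.16 over 20 alternative fits and passed in 6. Over 29 libraries, without those of replicate 2 at 6 h, the difference for FST was 1.67 (adjusted p = 0.00956).

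Among relatives, receptors, and the targets of hypoxia and PPAR, the counts are to be read against the 29% of all genes that changed and the 14.6% that rose, and no test set these families apart from that background. Of 20 tested relatives, 5 rose and 3 fell in siControl on deprivation at 16 h (median -0.14). ADM2, which encodes the sister peptide of adrenomedullin, rose from 0.667 ± 0.416 to 17.9 ± 2.87 CPM (4.74 on the log2 scale, adjusted p = 1.31e-07). FGF2 rose by 1.22 (adjusted p = 0.000509), and FGF19, another endocrine growth factor of the same family, rose by 3.80 (adjusted p = 0.00134) but only to 0.439 ± 0.112 CPM. GDF11 fell by 1.55 (adjusted p = 3.29e-05), BMP4 by 1.23 (adjusted p = 0.00843) and TGFB3 by 1.41 (adjusted p = 0.00535). In siATF4 without glucose 2 of 20 were below siControl, ADM2 by 1.58 (log2, adjusted p = 0.00611) and FGF19, which gave -2.74 (adjusted p = 0.0216). Of all genes 5.09% were lower there.

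Of 18 tested receptors and binding partners, 3 rose and 4 fell in siControl (median -0.06). GFRAL, the receptor of GDF15, was at 0 in siControl and siATF4 at 16 h. FGFR2 rose by 2.57 (adjusted p = 0.000243), the activin receptor ACVR2A by 0.83 (adjusted p = 0.000152) and PAPPA2 by 3.21 (adjusted p = 0.0154), the last to 0.819 ± 0.590 CPM. KLB, the co-receptor of FGF21, fell by 1.09 (adjusted p = 0.0181), FGFR4 by 1.25 (adjusted p = 3.98e-05), FGFR3 by 1.87 (adjusted p = 0.000477) and FLT4 by 0.89 (adjusted p = 0.00536). PAPPA, a target of both stanniocalcins, was at 144 ± 88.8 CPM with glucose and 129 ± 33.4 CPM without. Of 5 tested enzymes that process prohormones, none rose and 2 fell, PCSK7 by 0.55 (adjusted p = 0.00565) and PCSK6 by 0.35 (adjusted p = 0.042). Of all genes 29% changed.

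Of 16 stress transcription factors, 11 rose in siControl and 10 in siATF4, where 14.6% and 14.9% of all genes rose. DDIT3, the factor also called CHOP, rose from 5.19 ± 0.194 to 266 ± 14.3 CPM in siControl (5.68 on the log2 scale, adjusted p = 2.47e-10) and by 4.86 in siATF4 (adjusted p = 8.08e-10), and CEBPG rose by 1.71 in siControl (adjusted p = 2.18e-09). Without glucose 3 of the 16 were lower in siATF4 than in siControl: ATF4 itself, PPARA and ATF3, the last of which fell by 1.17 (log2, adjusted p = 0.0105). Of all genes 5.09% were lower in that comparison. HIF1A did not pass the test of deprivation with any siRNA at 16 h.

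Of 15 targets of the integrated stress response, 14 rose in siControl, 7 rose and 1, PSAT1, fell in siATF4, and 14 rose in siATF6. Of all genes 14.6%, 14.9% and 15.6% rose with these siRNAs. Without glucose 9 of the 15 were lower in siATF4 than in siControl, where 5.09% of all genes were lower. Their median was -0.99, against a median of -0.49 for the 8 hormone genes. PSAT1 fell by 1.59 (log2, adjusted p = 3.57e-06), PHGDH by 1.39 (adjusted p = 0.000124), and MTHFD2 gave -0.99 (adjusted p = 0.000124). Of 12 chaperones of the endoplasmic reticulum, all 12 rose with each siRNA. Without glucose 6 were lower in siATF6 than in siControl, where 4.02% of all genes changed.

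Of 16 hypoxia targets, 5 rose and 4 fell in siControl, beside 14.6% of all genes that rose and 29% that changed. NDRG1 rose by 1.83 (adjusted p = 3.4e-07) and BNIP3L by 1.39 (adjusted p = 9.98e-06), whereas LDHA fell by 1.05 (adjusted p = 0.000247), EGLN1 by 0.83 (adjusted p = 2.63e-05), EGLN3 by 1.15 (adjusted p = 0.0221) and CA9 by 1.83 (adjusted p = 0.00622). Of 9 tested PPAR targets, a group to which ANGPTL4 and FGF21 also belong, 1 rose, PLIN2 by 1.22 (adjusted p = 0.0129), and 3 fell, CAT, ETFDH by 0.65 (adjusted p = 0.00162) and PDK4 by 1.68 (adjusted p = 0.00637).

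**Figure D5:**
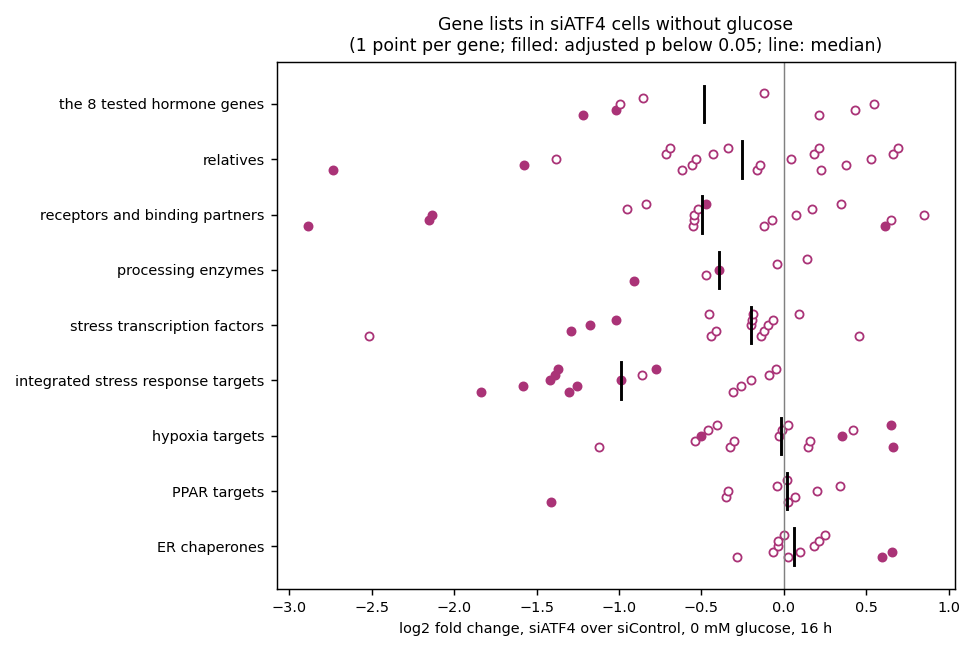
Log2 fold change of siATF4 over siControl in 0 mM glucose at 16 h (x axis) for the genes of each list (rows); each point is 1 gene, filled where the adjusted p is below 0.05, and the vertical line is the list's median. The median is -0.99 for the integrated stress response targets, -0.49 for the 8 tested hormone genes and 0.06 for the chaperones of the endoplasmic reticulum.

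For each gene the most similar profiles over the 18 libraries of 16 h were sought among about 11210 genes with a mean of at least 5 CPM, by the root mean square difference of centred log2(CPM + 1). VEGFA was nearest to MTHFD2, a mitochondrial folate enzyme, at 0.137, then SPIRE1 at 0.205 and HSPA13 at 0.220. GDF15 was nearest to UPP1, uridine phosphorylase, at 0.165, with PFDN2 (0.309) and ARHGEF2 (0.322) well behind. INHBE was nearest to ISL2 (0.163), SPSB1 (0.182) and PPP2R5B (0.191). INHBE averaged 1.04 CPM, so the added 1 compressed its profile (SD 0.482), while ISL2 and SPSB1 averaged 6.73 and 41.7 CPM. FST was nearest to CEBPB (0.244), TMEM39A (0.288) and SSR3 (0.290).

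ADM was nearest to JUNB (0.166), LBX2-AS1 (0.248) and TNFRSF12A (0.251), and ANGPTL4 to GRINA (0.156), B2M (0.184) and NFKBIB (0.185). STC1 was nearest to VDR, the vitamin D receptor, at 0.304, and STC2 to the peptide hormone gene SPX at 0.287, with MAFF (0.375) and ERN1 (0.382) next. CTSS (0.331) and DOCK4 (0.369) followed VDR for STC1. FGF21, near 0 in every library, has no profile to match. These distances describe shared libraries and depths and carry no test.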

How the data were processed

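Values are expected counts that the authors made with RSEM after fastp and STAR on GRCh38, per the submitters' processing notes. No annotation release is named there. Expected counts were rounded. CPM were taken per effective library size (TMM over 35 libraries), and TPM from the deposited effective lengths. Tests used edgeR 4.0.16 (R 4.3.3) after a per-group filterByExpr filter (minimum total 15, minimum count 10) and TMM scaling, with robust quasi-likelihood F tests and Benjamini-Hochberg adjustment over all genes of a comparison, at 0.05. Separate fits held the 18 libraries of 16 h, the 17 of 6 h and the 35 of both. Replicates were distinct libraries (mean chi-square per gene at least 8.44 within any pair). The pipeline was tested on simulated data. Same-numbered libraries at 16 h deviated together from their group means (all 3 pairs above r = 0.1, from 0.185 to 0.776) in deprivation in siControl and siATF6 and in the 4 comparisons of a knockdown with siControl. A fit blocked by number is given there where it changed a call; the labels do not say what the numbers share.

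All 9 genes were named. From each list came the 2 to 4 genes of smallest adjusted p and any past 0.05 in the opposite direction. GFRAL, PAPPA, PAPPA2, KLB and HIF1A were named for their roles, with their values known. The members and lists were chosen with earlier results of these data known. Alternatives were DESeq2 1.42.0, other size factors, no filter, other sets of libraries, each library left out, and replicate number or transfection as a block.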

Additional observations from a re-analysis of the deposited data

Results flagged for a closer look

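The deprivation response in siControl differed between 6 and 16 h for VEGFA, by 1.91, and for FGF21, by 5.50, on the log2 scale by the interaction test in edgeR. Both rest on 6 h groups that include the libraries labelled replicate 2, which ran against their glucose labels. FGF21 had 0 counts in the 3 siControl libraries with glucose at 16 h, so its fitted value depends on the prior count.

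The shallow library, replicate 3 of deprived siATF4 cells at 6 h, entered no comparison. In it INHBE stood at 43.6 CPM, VEGFA at 173 CPM and STC1 at 48.8 CPM, above the highest 6 h siATF4 library with glucose, at 1.73, 67.1 and 10.2 CPM respectively. GDF15, FST, ADM and ANGPTL4 had 0 counts in the same library.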

How the results depend on the processing

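Of 170 pairs of gene and comparison, 48 passed 0.05 in the reported fit or in an alternative, and 122 in none. In 72 of the 122 the sign changed in at least 1 alternative (175 of 2038 values), so their fold changes are not printed in the text; the plots show all 8 genes tested at 16 h, these among them. Counts of called genes changed as follows. With all 36 libraries in the fit, deprivation at 16 h called 1 gene in siControl, 0 in siATF4 and 3 in siATF6. That fit called 0 in the siATF4 and siATF6 comparisons with siControl at 0 mM and 0 in the 3 time comparisons. DESeq2 called 5 for deprivation in siATF4, 1 for each knockdown at 25 mM, 1 and 2 for the siATF4 response minus siControl and minus siATF6, and 3 for time at 25 mM. Restricted to the libraries compared, the counts were 1 for deprivation in siATF4, 0 for siATF4 at 0 mM, 2 for siATF6 at 25 mM, 3 and 1 for time at 25 and 0 mM, and 1 for deprivation by time. With 35 libraries siATF6 at 0 mM called 0. With 29 it called 1 for siATF6 at 25 mM, for both siATF4 response differences, for deprivation in siControl at 6 h and for time at 0 mM, and 4 for time at 25 mM. Upper-quartile factors called 1 in both siATF4 response differences. Without a filter the counts were 1 for siATF4 minus siControl, 0 for time at 25 mM and 1 for deprivation by time. Without the 6 h libraries of replicate 2, deprivation at 6 h called 2 in siControl and 1 in siATF6. Leaving out 1 library gave 1 to 2 for siATF4 at 0 mM, 0 to 1 for siATF4 minus siControl, 0 to 2 for siATF4 minus siATF6, 0 to 1 for time at 25 mM and 1 to 4 for deprivation by time.

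In siATF4 the media were not paired by number at 16 h, with the lowest of the 3 correlations at -0.572, so blocked fits of its deprivation response carry that doubt. Across siRNAs 34 of 36 same-number pairs at 16 h correlated above 0.1, against 22 of 72 pairs of different numbers. At 6 h 6 of 8 same-number pairs within an siRNA did. With the replicate number as a block, the counts were 4 for siATF4 at 0 mM, 1 and 2 for siATF6 at 25 and 0 mM, 2 and 2 for the siATF4 response differences (VEGFA and STC2 in both), 6 and 2 for time at 25 and 0 mM, and 6 for deprivation by time. With transfection as the block, siATF4 minus siATF6 called 1.

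Signs turned for VEGFA at 6 h and STC1 over time. Deprivation of VEGFA at 6 h was 0.14 in siControl and ran from -0.10 to 0.47 when 1 library was left out; in siATF6 it was 0.04, ran from -0.14 to 0.30, and was -0.0070 with the block. STC1 from 6 to 16 h was -0.49 at 25 mM and 1.18 with the block, and at 0 mM 0.23, with -1.22 to 0.68 when 1 library was left out. Limits are 2 pairs of libraries at 6 h whose glucose difference ran against their labels, 3 cultures a group, and counts of FGF21 too low for a test at 16 h.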
